A study of Mus musculus with 2 samples.

Results

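The 7 genes described here build, load and switch on major histocompatibility complex (MHC) class II molecules. *H2-Aa*, *H2-Ab1* and *H2-Eb1* encode alpha and beta chains of these molecules, here called surface chains whether or not the protein reaches the surface in these mice. *Cd74* encodes the invariant chain, *H2-DMa* and *H2-DMb1* encode the subunits of the peptide exchanger H2-M, and *Ciita* encodes the transactivator of the class II genes. They were chosen by name among the 32285 genes of the deposited tables, and all 7 were found there.

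CD45+ cells were sorted from the brains of 8 littermate mice, all 12 weeks old, tagged per mouse and sequenced from the 3′ ends of their transcripts in 1 pooled library. Of these mice, 4 carried the Tg(*Cx3cr1*-Cre) transgene on an *Arpc4* fl/fl background, here called Arpc4ΔCx3cr1, and 4 had the *Arpc4* fl/fl background alone (control), so both groups carried the floxed alleles of *Arpc4*, which encodes a subunit of the actin-branching Arp2/3 complex. The *Cx3cr1* promoter that drives Cre is active in microglia and also in CNS-associated macrophages (CAMs) and other myeloid cells. All controls were male and 1 Arpc4ΔCx3cr1 mouse was female, which the paper left out of its analysis. The labels do not say which mouse it was, so all 8 mice were used and results were also computed without each mouse in turn.

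MHC class II molecules present peptides from endosomes to CD4+ T cells. The alpha and beta chains pair in the endoplasmic reticulum around the invariant chain, which guides them to endosomes, where proteases degrade it and H2-M exchanges its last fragment for other peptides. Dendritic cells and B cells carry the pathway constitutively, CAMs carry it in part of their cells, and microglia of the healthy adult brain carry little of it. CIITA has no DNA-binding domain of its own and docks on factors that sit on short boxes, called X, X2 and Y, upstream of class II genes.

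The windows of 150 bases before the RefSeq start sites (GRCm38.p6) are shown for 3 members, because their class II boxes are the feature these genes share at the sequence level. RefSeq promoters were matched for 4 of the 7 members. Capitals mark the letters of the boxes, searched on both strands as TGATTGG (Y box), AACNNATG (X box) and TGACGTCA (X2 box), which were chosen after the sequences had been read and do not overlap each other here. The windows lie on chromosome 17, at chr17:34287824-34287973 on the minus strand for *H2-Aa*, at chr17:34305717-34305866 on the plus strand for *H2-Eb1* and at chr17:34153041-34153190 on the plus strand for *H2-DMb1*.
H2-Aa: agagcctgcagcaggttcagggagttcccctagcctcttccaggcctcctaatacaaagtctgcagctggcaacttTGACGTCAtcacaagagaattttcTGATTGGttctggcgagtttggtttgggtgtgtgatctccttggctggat
H2-Eb1: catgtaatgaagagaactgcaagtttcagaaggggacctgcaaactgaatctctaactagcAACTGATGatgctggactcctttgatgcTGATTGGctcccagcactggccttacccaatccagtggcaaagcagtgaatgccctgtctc
H2-DMb1: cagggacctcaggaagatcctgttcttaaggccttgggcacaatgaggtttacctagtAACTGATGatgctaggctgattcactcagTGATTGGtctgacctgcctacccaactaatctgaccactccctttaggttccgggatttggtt

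The Y box lay 44 to 50 bases before the start of *H2-Aa*, 55 to 61 bases before that of *H2-Eb1* and 57 to 63 bases before that of *H2-DMb1*. Upstream of it, *H2-Eb1* and *H2-DMb1* held the X box (82 to 89 and 85 to 92 bases before the start) and *H2-Aa* held the X2 box (67 to 74 bases before the start). Of the 32851 promoters in the table, 5.71% held TGATTGG, 4.43% held AACNNATG and 1.36% held TGACGTCA. The windows of *H2-DMa*, which has 2 start sites in the table, held none of these letters. They lie at chr17:34122682-34122831 and chr17:34125368-34125517 on the plus strand, inside the GENCODE gene span given below. The bases before the GENCODE start of *H2-DMa* were thus not searched. The window of *H2-DMb1* runs past its GENCODE start, and its 2 boxes lie inside that gene span. A match describes the sequence and not the binding of a factor.

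The other positions come from the GENCODE vM21 annotation of GRCm38. *H2-Aa* (chromosome 17, 34282744 to 34287823, minus strand), *H2-Ab1* (34257689 to 34269419, plus strand), *H2-Eb1* (34305867 to 34316674, plus strand), *H2-DMa* (34119541 to 34139101, plus strand) and *H2-DMb1* (34153072 to 34160230, plus strand) are neighbours on chromosome 17. *Cd74* lies on chromosome 18 (60803848 to 60812652, plus strand) and *Ciita* on chromosome 16 (10480059 to 10528418, plus strand). Counts of *H2-DMb1* are uncertain where reads also match its near-identical copy *H2-DMb2*.

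The files hold 19864 cells, of which 19863 passed the filters, and no barcode was shared between mice. UMIs (unique molecular identifiers, each standing for 1 captured RNA molecule) on genes added up to 5251527 to 11148525 per control mouse and 10768644 to 12878691 per Arpc4ΔCx3cr1 mouse. Cells were clustered without the 7 members and without the other listed class II genes, and clusters were named from markers that are not members, except for 1507 cells of low depth that stayed unnamed. Microglia-like cells numbered 7765 in control and 7901 in Arpc4ΔCx3cr1 mice and came mostly from different clusters (1, 2 and 3 in control, and 0, 4, 5, 9, 10, 11 and 15 in Arpc4ΔCx3cr1 mice). Arpc4ΔCx3cr1 1 stood apart in that it gave 1413 of the 1470 cells of Arpc4ΔCx3cr1 mice in cluster 5, which was led by *Xist*, *Fn1* and *Tsix*. As *Xist* is a transcript of female cells, this points to Arpc4ΔCx3cr1 1 as the female mouse that the paper left out. *Arpc4* itself was at 216 to 236 CPM (UMIs of a gene scaled to a common library total) in microglia-like cells of the 4 control mice and at 137 to 153 CPM in those of the 4 Arpc4ΔCx3cr1 mice (log2 difference -0.62, edgeR adjusted p = 6.86e-06). It was not compared which part of the gene is deleted and whether the counted 3′ ends lie outside it.

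The free RNA of the pool was read from empty droplets, here the barcodes with no more than 100 UMIs. They held *Cd74* at 1145 CPM, *H2-Aa* at 243 CPM, *H2-Ab1* at 218 CPM, *H2-Eb1* at 228 CPM, *H2-DMa* at 316 CPM, *H2-DMb1* at 143 CPM and *Ciita* at 2.34 CPM. All levels below have to be read beside these values, since all 8 mice shared 1 pool.

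Between genotypes, *Cd74* changed most in microglia-like cells. It rose 5.02-fold in Arpc4ΔCx3cr1 mice, *H2-Ab1* rose 2.99-fold and *H2-DMa* rose 1.38-fold, while *H2-Aa*, *H2-Eb1* and *H2-DMb1* did not pass the test and *Ciita* was too low to be tested. Thus 3 of the 6 members tested were higher and 0 lower, where 22.5% of all 12629 genes tested were called higher and 22.8% lower (45.3% in either direction). The median log2 difference was 0.79 over the 6 members and -0.01 over all genes. CPM beside these tests are scaled by TMM factors.

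The invariant chain gene *Cd74* was at 190, 82.2, 126 and 61.7 CPM in control mice 1 to 4. In Arpc4ΔCx3cr1 mice 1 to 4 it was at 485, 620, 595 and 573 CPM. The groups did not overlap, control 1 was the highest and control 4 the lowest control mouse, and the log2 difference was 2.33 ± 0.28 (SE, n = 4 and 4, edgeR adjusted p = 6.73e-05).

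*H2-Ab1*, the beta chain of I-A, was at 47.6, 18.6, 31.5 and 13.3 CPM in control mice 1 to 4 and at 59.9, 85.4, 94.9 and 74.0 CPM in Arpc4ΔCx3cr1 mice 1 to 4. The groups did not overlap (log2 difference 1.58 ± 0.31, adjusted p = 0.00172). Its partner, the alpha chain gene *H2-Aa*, was at 49.2, 15.4, 21.5 and 6.51 CPM in control mice and at 32.3, 59.0, 55.3 and 35.8 CPM in Arpc4ΔCx3cr1 mice. Here control 1 lay above 2 of the Arpc4ΔCx3cr1 mice, and the log2 difference of 1.10 ± 0.45 did not pass (adjusted p = 0.0659). Without control 1 it was 1.66 (adjusted p = 0.00514) and without Arpc4ΔCx3cr1 1 it was 1.30 (adjusted p = 0.0129), so the call for *H2-Aa* turned on single mice.

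*H2-Eb1*, the beta chain of I-E, was at 46.6, 16.0, 21.6 and 7.74 CPM in control mice and at 17.4, 36.8, 37.5 and 24.2 CPM in Arpc4ΔCx3cr1 mice. The groups overlapped and the log2 difference was 0.45 ± 0.43 (adjusted p = 0.426). *H2-DMa* was at 204, 204, 223 and 205 CPM in control mice and at 237, 334, 296 and 290 CPM in Arpc4ΔCx3cr1 mice, without overlap (log2 difference 0.47 ± 0.09, adjusted p = 0.00183). *H2-DMb1*, which encodes the other subunit of H2-M, was at 104 to 116 CPM in control and at 95.9 to 115 CPM in Arpc4ΔCx3cr1 mice, with a log2 difference of -0.03 ± 0.07 (adjusted p = 0.692). The 2 subunits of H2-M thus stood differently in the test, and the difference between them was not tested. *Ciita* was at 0.213 to 1.11 CPM in control mice and at 0.866 to 1.75 CPM in Arpc4ΔCx3cr1 mice, scaled by total UMIs.

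**Figure D1:**
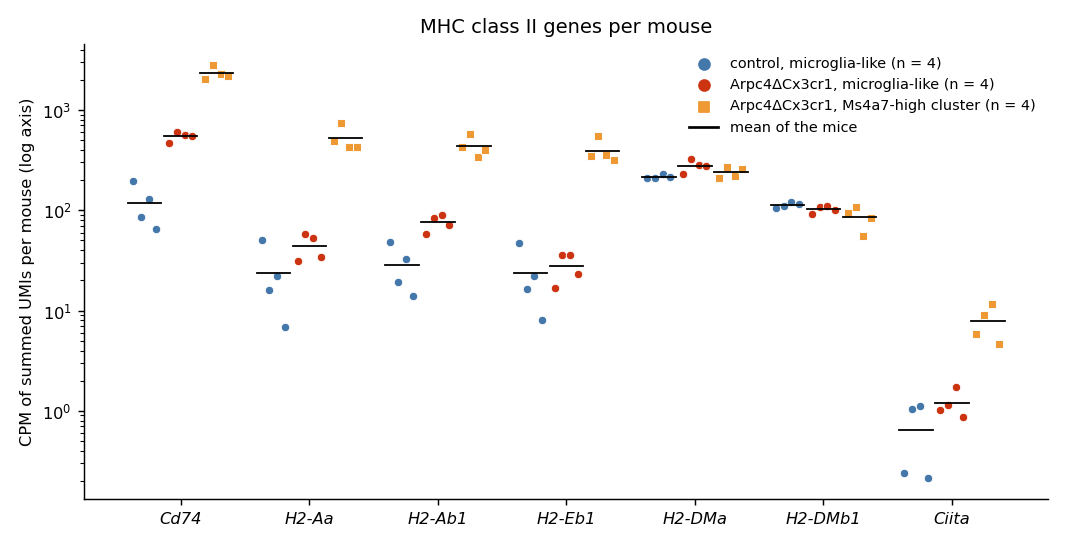
CPM (summed UMIs per mouse scaled by their total, log axis) of the 7 genes in microglia-like cells of 4 control and 4 Arpc4ΔCx3cr1 mice and in the *Ms4a7*-high cluster of the 4 Arpc4ΔCx3cr1 mice, with 1 point per mouse and bars at the means. *Cd74* and *H2-Ab1* step up from group to group without overlap, whereas the groups overlap for *H2-DMb1*.

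Markers of other cell types were summed in the same microglia-like cells. The 9 B cell markers summed to 480 to 519 CPM in control mice and to 86.8 to 193 CPM in Arpc4ΔCx3cr1 mice, and the 9 CAM markers to 166 to 183 CPM and 59.3 to 115 CPM. The B cell list holds *Bank1*, a leading gene of clusters 1 and 3, which are mostly of control cells, and its part in the sum was not tested. A B cell marker UMI was found in 77.3% of control and 41.8% of Arpc4ΔCx3cr1 microglia-like cells without a chain UMI, so this list does not mark B cells alone. The 10 dendritic cell markers summed to 215 to 236 CPM and 206 to 237 CPM, and the 8 T cell markers to at most 3.06 CPM. The 11 microglia markers summed to 23922 to 24342 CPM in control and to 9812 to 14353 CPM in Arpc4ΔCx3cr1 mice. When all cells with a UMI of *Ms4a7* or of a B cell, dendritic cell or CAM marker were left out, an alternative added after the data were seen, the log2 difference was 3.03 for *Cd74*, 2.06 for *H2-Ab1*, 2.34 for *H2-Aa*, 1.40 for *H2-Eb1* and 0.47 for *H2-DMa*, all past the threshold.

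The change was also seen in the number of cells in which a transcript was caught. Each cell was thinned to 2000 UMIs, which left out 282 of the control and 120 of the Arpc4ΔCx3cr1 microglia-like cells. The share of cells with a *Cd74* UMI was 9.93% ± 0.472 (SD, n = 4) in control and 45.5% ± 1.42 in Arpc4ΔCx3cr1 mice (two-sided exact permutation p = 0.0286, the lowest value possible with 4 against 4 mice). Without thinning it was 17.1% ± 1.05 and 64.2% ± 4.39. *H2-Ab1* was caught in 3.05% ± 0.454 and 11.4% ± 0.964 of cells, *H2-Aa* in 1.65% ± 0.496 and 4.62% ± 1.18, and *H2-Eb1* in 1.74% ± 0.265 and 3.22% ± 0.989, in each case without overlap (exact permutation p = 0.0286 for each of the 3). *H2-DMa* was caught in 33.1 to 38.3% and in 36.9 to 47.7% of cells (exact p = 0.0571) and *H2-DMb1* in 20.7% ± 0.549 and 18.6% ± 0.717 (exact p = 0.0286), the only share that was lower in Arpc4ΔCx3cr1 mice after thinning. All 7 members were tested, and *Ciita*, caught in at most 0.284% of the cells of a mouse, did not differ beyond the spread (exact p = 0.486).

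T cell-like cells, whose cluster also held natural killer genes and which are not known to make class II molecules in mice, give the background of these shares. With the same thinning, 9.38% of 128 T cell-like cells in control mice (exact 95% interval 4.94 to 15.8) and 23.4% of 167 in Arpc4ΔCx3cr1 mice (17.2 to 30.5) held a *Cd74* UMI. For *H2-Ab1* the shares were 7.03% and 5.99%, for *H2-Aa* 7.03% and 5.39%, and for *H2-Eb1* 3.12% and 2.99%. The median depth before thinning was 4939 and 4050 UMIs in T cell-like cells against 3836 and 4547 UMIs in microglia-like cells. The shares of control microglia-like cells thus lay within the interval of the background or below it for *Cd74* and all 3 chains, and those of Arpc4ΔCx3cr1 microglia-like cells lay within it for *H2-Aa* (2.49 to 9.98%) and *H2-Eb1* (0.979 to 6.85%). Of these 4 genes, *Cd74* and *H2-Ab1* in Arpc4ΔCx3cr1 microglia-like cells stood above it, with 11.4% (10.7 to 12.1) against 5.99% (2.91 to 10.7) for *H2-Ab1*, whose intervals meet. By share the background was higher for *Cd74* in Arpc4ΔCx3cr1 mice, but by level it was not, with a mean of 827 CPM in T cell-like cells of control mice (13.1 to 1826) and of 277 CPM in those of Arpc4ΔCx3cr1 mice (151 to 457), and its part in the difference was not tested. All intervals cover counting error only.

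**Figure D2:**
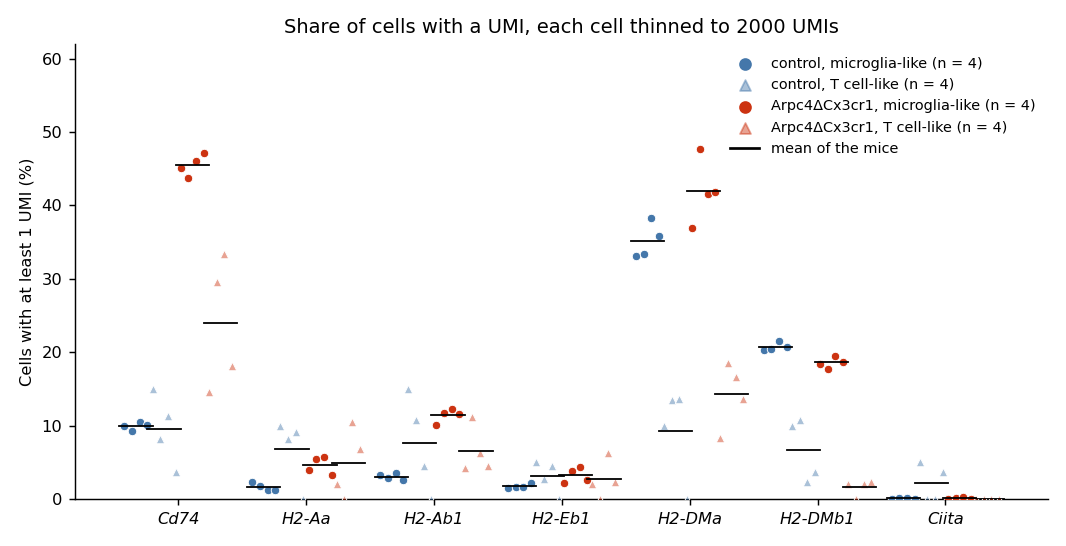
Share of cells (%) with at least 1 UMI of each gene after every cell was thinned to 2000 UMIs, for microglia-like cells (circles) and T cell-like cells (triangles) of 4 control and 4 Arpc4ΔCx3cr1 mice, with 1 point per mouse and bars at the means. For *Cd74*, Arpc4ΔCx3cr1 microglia-like cells lie near 45%, above all other groups shown.

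The chains were seldom caught together. Cells with UMIs of at least 2 of the 3 surface chains made up 0.487 to 1.05% of microglia-like cells in control mice and 4.58 to 8.68% in Arpc4ΔCx3cr1 mice, without overlap. Cells with 10 or more chain UMIs numbered 2 to 7 per control mouse and held 79.7, 43.1, 61.2 and 9.96% of the chain UMIs of control mice 1 to 4. In Arpc4ΔCx3cr1 mice, such cells numbered 15 to 31 per mouse and held 29.7 to 43.4% of the chain UMIs, within the span of the control mice. Cells with a *Cd74* UMI and no chain UMI at full depth made up 14.4% ± 0.735 in control and 42.1% ± 3.76 in Arpc4ΔCx3cr1 mice. Most *Cd74*-positive microglia-like cells of both groups therefore had no chain transcript caught, which at this depth does not show that they lacked one.

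The ratio of *Cd74* to the surface chains also differed between the genotypes in microglia-like cells. Those of Arpc4ΔCx3cr1 mice held 3.17 to 4.42 *Cd74* UMIs per UMI of the 3 chains, against 1.33 to 2.24 in control microglia-like cells. The ratio was 1.14 to 1.46 in CAM-like cells of all mice, 1.06 to 1.33 in dendritic cell-like cells and 1.74 to 3.69 in B cell-like cells. Monocyte-like cells were at 3.95 and 2.37 in the 2 Arpc4ΔCx3cr1 mice with enough chain UMIs, so ratios as high also occurred outside the microglia-like cells. T cell-like cells moved the same way, from 1.17 to 1.59 in 3 control mice to 2.22 and 2.48 in the 2 Arpc4ΔCx3cr1 mice with enough chain UMIs. In empty droplets it was 1.66, from 7844 *Cd74* UMIs, so the control microglia-like cells spanned the value of free RNA and the Arpc4ΔCx3cr1 microglia-like cells did not reach down to it. Set against free RNA by level, *Cd74* in microglia-like cells was 5.64 to 17.0% of the empty-droplet CPM in control mice and 40.8 to 53.1% in Arpc4ΔCx3cr1 mice. A correction for free RNA at 10% of each sum would thus take away all *Cd74* of 2 control mice, so no corrected fold is given.

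Within the microglia-like cells, *Cd74* differed between clusters. Values are means over mice with at least 20 cells in a cluster. In control mice it was at 38.6 ± 4.75 CPM in cluster 1, 72.1 ± 15.4 CPM in cluster 2 and 86.0 ± 34.2 CPM in cluster 3 (SD, n = 4). In Arpc4ΔCx3cr1 mice it was at 427 ± 130 CPM in cluster 0, led by *Ctnna3* and *Tafa1*, at 655 ± 257 CPM in cluster 4, led by *Cst7*, *Ttr* and *Cxcl13*, and at 786 ± 295 CPM in cluster 9, led by interferon-induced genes such as *Cxcl10*, *Ifit3* and *Rsad2*. It was highest in cluster 11, led by *Cst7*, *Cox6a2*, *Spp1* and *Apoe* (1325 ± 500 CPM, n = 4), and low in cluster 15 (82.4 and 115 CPM in the 2 mice with enough cells). The mice varied widely inside clusters, and neighbours in the order of the Arpc4ΔCx3cr1 clusters overlapped except for cluster 15.

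The surface chains followed the same order loosely. *H2-Aa* was at 153 ± 119 CPM in cluster 11, at 102 ± 70.1 CPM in cluster 9 and at 36.5 ± 19.0 CPM in cluster 0 of Arpc4ΔCx3cr1 mice, and at 5.57 ± 0.917 CPM in cluster 1 of control mice. Some clusters held enough cells of both genotypes. In cluster 10, led by the chemokine genes *Ccl4* and *Ccl3*, *Cd74* was at 184 ± 59.7 CPM in 3 control mice (115 to 219) and at 621 ± 95.5 CPM in 4 Arpc4ΔCx3cr1 mice (518 to 749), without overlap. In cluster 0 it was at 257 and 287 CPM in 2 control mice and at 267 to 580 CPM in 4 Arpc4ΔCx3cr1 mice, which overlapped. In clusters 1, 2 and 3, the 82, 73 and 80 cells of Arpc4ΔCx3cr1 2, the only mouse of its group with enough cells there, were at 28.8, 65.7 and 63.3 CPM, below the mean of the control mice in each. All Arpc4ΔCx3cr1 cells of these clusters together (103, 89 and 110) were at 35.7, 474 and 82.5 CPM. All control cells together were at 38.5, 70.4 and 89.3 CPM, so cluster 2 went the other way. No control mouse had enough cells in clusters 4, 9 and 11. All control cells there together (45, 37 and 30) were at 1028, 1736 and 5383 CPM of *Cd74*. These values lay above the 761, 740 and 1260 CPM of all Arpc4ΔCx3cr1 cells of the same clusters together. The same control cells held *H2-Aa* at 195, 682 and 1188 CPM, against 50.8, 98.8 and 138 CPM in the Arpc4ΔCx3cr1 cells. How these UMIs were spread over the few control cells was not examined, so the values do not describe a typical control cell there. Clusters were formed on other genes of the same cells, and the values by cluster are given without a test.

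**Figure D3:**
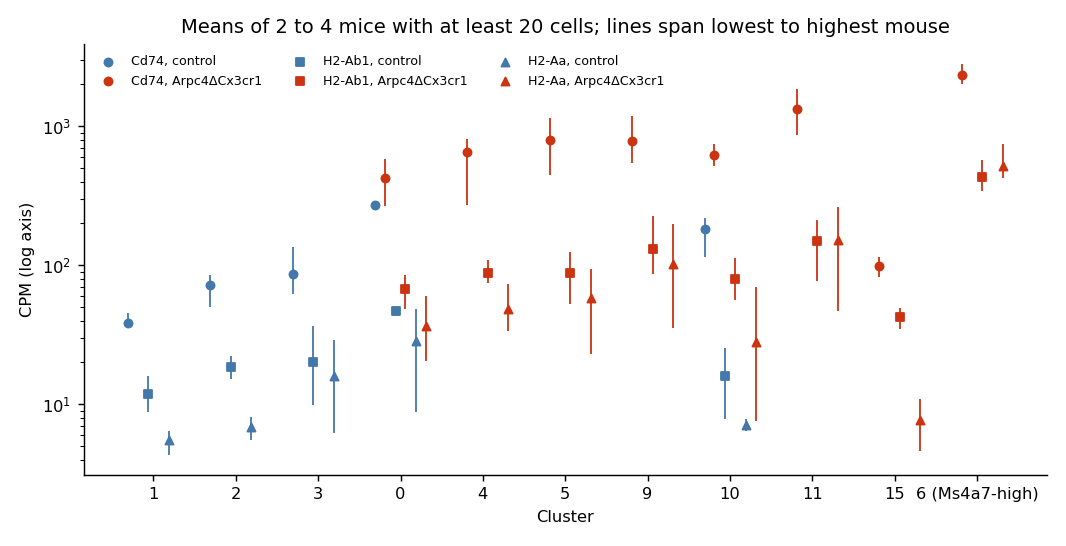
Mean CPM (log axis) of *Cd74* (circles), *H2-Ab1* (squares) and *H2-Aa* (triangles) in each cluster of microglia-like cells and in the *Ms4a7*-high cluster 6, for control (blue) and Arpc4ΔCx3cr1 (red) mice with at least 20 cells there, with lines from the lowest to the highest mouse. For *Cd74*, clusters mostly of control cells (1, 2 and 3) lie lowest, cluster 11 is the highest of the microglia-like clusters and cluster 6 lies above it.

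Of the 35 other genes of the class II route found in the tables, 33 were tested in microglia-like cells, 16 were higher in Arpc4ΔCx3cr1 mice, 6 were lower and 11 did not pass, where 22.5% of all genes were called higher and 22.8% lower, so the falls were near the share over all genes. Their median log2 difference was 0.25, beside -0.01 over all genes. Among the other class II chains, *H2-Oa*, a subunit of the H2-O modulator of H2-M, rose by a log2 difference of 1.00 ± 0.21 (adjusted p = 0.00239) and *H2-DMb2* by 0.74 ± 0.13 (adjusted p = 0.000797), while *H2-Ob*, the partner of *H2-Oa*, was at 0.15 ± 0.16 (adjusted p = 0.459). *H2-Eb2* was too low to be tested.

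Large rises on the list were in *Cd44* (log2 difference 3.75), which encodes a partner of CD74 in MIF signalling, in the chemokine receptor gene *Cxcr4* (3.53), in the costimulatory receptor gene *Cd40* (2.36) and in *Mif* (1.36), which encodes a ligand of CD74. These 4 genes do not build class II molecules. The largest falls were in the endosomal protease gene *Lgmn* (-0.76), in the interferon-gamma receptor gene *Ifngr1* (-0.48), in *Nfyb* (-0.44) and *Rfxank* (-0.36), which encode subunits of the factors on the Y and X boxes, and in the myeloid transcription factor gene *Spi1* (-0.30). The proteases that process the invariant chain did not move one way, since *Ctsb* (0.80), *Ctss* (0.62) and *Ctsl* (0.49) rose and *Lgmn* fell. Of the 7 listed genes for factors on the boxes, none rose, and *Rfx5*, *Rfxap*, *Nfya*, *Nfyc* and *Creb1* did not pass the test.

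*Ms4a7*, which encodes a membrane-spanning protein and is known as a gene of CAMs, was then used to divide the microglia-like cells of Arpc4ΔCx3cr1 mice. The surface chains and *Cd74* were higher in *Ms4a7*-positive cells of each of the 4 mice. Positive and negative cells did not overlap over the mice for these 4 genes, and the share of all genes for which this held was not computed. In the main edgeR fit, which has no term for the mouse, none of these differences passed the test over all genes. They passed when cells of the same mouse were compared, and also in some alternatives without that term, given below. At least 1 *Ms4a7* UMI was found in 1357 cells (17.2%) of Arpc4ΔCx3cr1 mice and in 183 cells (2.36%) of control mice. Empty droplets held *Ms4a7* at 206 CPM. In Arpc4ΔCx3cr1 mice it averaged 109 CPM in microglia-like cells and 133 CPM in T cell-like cells (6.71 to 199). A positive cell may thus hold only free RNA of *Ms4a7*, and the part of free RNA in this division was not tested. *Cd74* was at 644, 1251, 806 and 708 CPM in positive cells of Arpc4ΔCx3cr1 mice 1 to 4 and at 392, 489, 537 and 506 CPM in negative cells of the same mice. *H2-Aa* was at 74.3, 222, 94.7 and 75.9 CPM in positive and at 13.1, 29.4, 46.6 and 22.8 CPM in negative cells. *H2-Eb1* was at 38.0, 139, 78.1 and 53.7 CPM in positive and at 7.98, 18.2, 29.3 and 14.7 CPM in negative cells. For these 3 genes positive cells lay above negative cells in every mouse.

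Without the mouse as a term, 0.215% of all 11608 genes tested were called and none of the 7 members was among them, with log2 differences of 0.82 for *Cd74* (adjusted p = 0.179), 2.00 for *H2-Aa* (adjusted p = 0.129), 1.05 for *H2-Ab1* (adjusted p = 0.229), 2.06 for *H2-Eb1* (adjusted p = 0.129) and 1.89 for *Ciita* (adjusted p = 0.275). With the mouse as a replicate block, which takes the pairing of both sums from the same animal, 6.11% of genes were called, 3.73% of genes higher, and 5 of 7 members were higher. The blocked log2 differences were 0.79 ± 0.07 for *Cd74* (adjusted p = 2.75e-09), 2.03 ± 0.16 for *H2-Aa*, 1.06 ± 0.11 for *H2-Ab1*, 2.10 ± 0.15 for *H2-Eb1* and 2.05 ± 0.48 for *Ciita* (adjusted p = 0.00488). *H2-DMa* (-0.09 ± 0.05) and *H2-DMb1* (-0.16 ± 0.07) did not pass in either fit. Of the 33 other class II genes tested, 0 passed without the block, and with it 5 were higher, led by *Cxcr4* (log2 difference 1.73) and *Cd40* (1.00), and 2 lower, *Ctsl* (-0.28) and *Lgmn* (-0.19). Without Arpc4ΔCx3cr1 1, 4 members passed in the fit without the block. Positive cells were deeper (median 5066 against 4470 UMIs), and 36.3% of them held a UMI of a CAM marker against 25.1% of negative cells. The part of these differences in the result was not tested.

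A further cluster with high *Ms4a7* held 1337 cells of Arpc4ΔCx3cr1 mice and 39 of control mice. This *Ms4a7*-high cluster was led by haemoglobin genes, *Ms4a7*, *Pde7b* and *Stard13* and had both microglia markers (2 of 11) and CAM markers (3 of 9) raised, so it was given no cell type name. In Arpc4ΔCx3cr1 mice the microglia markers summed to 5061 to 8053 CPM in it, 9812 to 14353 CPM in microglia-like cells and 3554 to 6026 CPM in CAM-like cells. At the lower clustering resolution of 0.4, *Ms4a7* was among the leading genes only of a cluster of 1828 cells named CAMs. The surface chains of the *Ms4a7*-high cluster of Arpc4ΔCx3cr1 mice stood from 5.99-fold (*H2-Ab1*) to 14.7-fold (*H2-Eb1*) above those of microglia-like cells of the same mice, whereas the H2-M genes did not pass the test. Of the 7 members 5 were higher, where 6.61% of the 11668 genes tested were called higher and 14.0% in either direction. The median log2 difference of the members was 2.58, beside 0.01 over all genes.

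In the *Ms4a7*-high cluster of Arpc4ΔCx3cr1 mice 1 to 4, *Cd74* was at 2155, 2832, 2293 and 2243 CPM, against 458, 586, 566 and 541 CPM in their microglia-like cells. The log2 difference was 2.15 ± 0.12 (adjusted p = 3.36e-06). *H2-Aa* was at 524, 745, 429 and 439 CPM against 30.5, 55.8, 52.6 and 33.8 CPM (log2 difference 3.63 ± 0.24, adjusted p = 6.23e-06). *H2-Eb1*, which did not pass between genotypes, had the largest log2 difference here (3.87 ± 0.26, adjusted p = 6.06e-06), with 370, 547, 363 and 326 CPM against 16.5, 34.8, 35.6 and 22.8 CPM. *H2-Ab1* was at 345 to 577 CPM against 56.6 to 90.2 CPM (2.58 ± 0.18). *Ciita* rose with the chains, from 0.855 to 1.74 CPM in microglia-like cells to 4.75 to 11.9 CPM in the cluster (log2 difference 2.70 ± 0.39, adjusted p = 0.00107). The groups of these 5 genes did not overlap, and the share of all genes for which this held was not computed. *H2-DMa* (-0.16 ± 0.12, adjusted p = 0.436) and *H2-DMb1* (-0.19 ± 0.15, adjusted p = 0.455) did not pass. These 5 genes also passed when any of the 4 mice or all cells with a CAM marker UMI were left out.

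Within the cluster the chains again sat in a minority of cells. Cells with 10 or more chain UMIs made up 8.13 to 12.3% of the cluster per Arpc4ΔCx3cr1 mouse and held 76.2 to 86.0% of its chain UMIs. *Cd74* UMIs per chain UMI were 1.52 to 2.02, below the 3.17 to 4.42 of microglia-like cells of the same mice and around the 1.66 of empty droplets. Of the 33 other listed class II genes tested, 5 passed, near the 14.0% called over all genes: 2 rose, *Cxcr4* (log2 difference 2.92) and the interferon-regulated factor gene *Irf1* (0.62), and 3 fell, the protease gene *Ctsl* (-1.48), *H2-Oa* (-1.27) and *Mif* (-0.76). With the mouse as a block, 6 were higher and 8 lower. *H2-Oa* and *Mif* were thus lower in the cluster although both were higher in Arpc4ΔCx3cr1 than in control microglia-like cells. The summed CAM markers were at 183 to 459 CPM in the cluster and at 5141 to 13529 CPM in CAM-like cells of the same mice.

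The few control cells of the same cluster carried more class II transcript than those of Arpc4ΔCx3cr1 mice. In the 3 control mice with 10, 12 and 16 such cells, *Cd74* was at 5356, 19555 and 11953 CPM and *H2-Aa* at 2246, 5805 and 4283 CPM. In the 4 Arpc4ΔCx3cr1 mice, with 242 to 414 cells, they were at 2021 to 2826 CPM and at 423 to 743 CPM. The groups did not overlap for *Cd74*, the 3 chains, *H2-DMb1* or *Ciita* (two-sided exact permutation p = 0.0571 for each, the lowest value possible with 3 against 4 mice), and the mean was 7.88-fold higher in control mice for *H2-Aa* and 5.28-fold higher for *Cd74*. The share of all genes that did not overlap between these groups was not computed, so the number of such members is not a result about them. The CAM markers summed to 910 to 1673 CPM in these control cells, above the 183 to 459 CPM of the Arpc4ΔCx3cr1 cells, and their part in the difference was not tested. The control values rest on 10 to 16 cells each.

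CAM-like cells carried far more class II transcript than microglia-like cells, and here no member passed between genotypes. Arpc4ΔCx3cr1 mice 2 and 4 lay below all controls for each of the 6 members tested. The share of all genes for which these 2 mice lay below all controls was not computed. In the 4 control mice *Cd74* was at 13543 to 14806 CPM (TMM-scaled, 47 to 106 cells per mouse). Arpc4ΔCx3cr1 mice 1 and 3 were at 16599 and 14744 CPM, Arpc4ΔCx3cr1 2 at 6290 CPM and Arpc4ΔCx3cr1 4 at 3416 CPM, from 20 and 31 cells for the last 2 mice. *H2-Aa* was at 4115 to 4861 CPM in control mice, at 4742 and 4635 CPM in Arpc4ΔCx3cr1 mice 1 and 3 and at 1747 and 1067 CPM in mice 2 and 4. *H2-DMa* was at 518 to 588 CPM in control mice, at 558 and 480 CPM in Arpc4ΔCx3cr1 mice 1 and 3 and at 253 and 108 CPM in mice 2 and 4. For 2 further members all 4 Arpc4ΔCx3cr1 mice lay below all controls, and the share of all genes for which this held was not computed. *H2-DMb1* was at 455 to 555 CPM in control mice and at 430, 291, 332 and 225 CPM in Arpc4ΔCx3cr1 mice 1 to 4 (log2 difference -0.63 ± 0.22, adjusted p = 0.203). *H2-Eb1* was at 3663 to 4392 CPM in control mice and at 3462, 1493, 3619 and 822 CPM in Arpc4ΔCx3cr1 mice 1 to 4.

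None of the 6 members passed between genotypes in CAM-like cells, where 1.11% of the 3348 genes tested were called. The log2 differences ran from -0.49 ± 0.32 for *Cd74* (adjusted p = 0.626) to -0.77 ± 0.31 for *H2-Eb1* (adjusted p = 0.313). The summed CAM markers were 13529 CPM in Arpc4ΔCx3cr1 4, 7901 CPM in Arpc4ΔCx3cr1 2 and 5141 to 8048 CPM in the other 6 mice. Summed monocyte markers were at 0 CPM in Arpc4ΔCx3cr1 4, at 22.9 CPM in Arpc4ΔCx3cr1 2 and at 45.5 to 461 CPM in the others, and their part in the low class II values was not tested. *Arpc4* was at 194 to 264 CPM in control and at 215 to 309 CPM in Arpc4ΔCx3cr1 CAM-like cells (log2 difference 0.24 ± 0.22, adjusted p = 0.759).

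**Figure D4:**
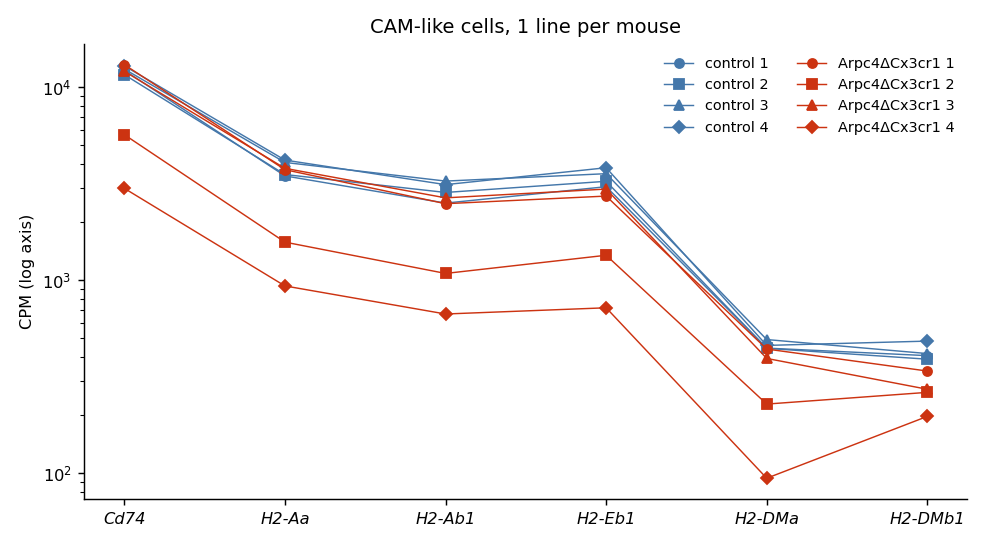
CPM (scaled by total UMIs, log axis) of 6 members in CAM-like cells, with 1 line per mouse. Arpc4ΔCx3cr1 4 lies lowest and Arpc4ΔCx3cr1 2 next to lowest for all 6 genes, while Arpc4ΔCx3cr1 1 and 3 lie near the control lines for *Cd74* and *H2-Aa* and below all of them for *H2-DMb1* and *H2-Eb1*.

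Dendritic cell-like cells, the class with the highest levels, did not differ between genotypes by the test. They were led by *Saa3* and *Cd209a* and numbered 77 in control and 69 in Arpc4ΔCx3cr1 mice, 49 of the latter from Arpc4ΔCx3cr1 1, and Arpc4ΔCx3cr1 2 had too few cells to enter. *Cd74* was at 36177, 35598, 34714 and 26629 CPM in control mice 1 to 4 and at 19244, 35298 and 18470 CPM in Arpc4ΔCx3cr1 mice 1, 3 and 4 (log2 difference -0.45 ± 0.23, adjusted p = 0.570). None of the 7 members passed, where 0.244% of the 2462 genes tested were called. *H2-DMa* did not overlap between groups, with 1094 to 1197 CPM in control and 685 to 772 CPM in Arpc4ΔCx3cr1 mice, and did not pass either (log2 difference -0.65 ± 0.17, adjusted p = 0.178).

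B cell-like cells, led by *Igkc*, *Igha* and *Jchain*, numbered 43 in control and 35 in Arpc4ΔCx3cr1 mice. *Cd74* was at 5136, 9086, 15097 and 13083 CPM in control mice and at 11442, 11145 and 8633 CPM in Arpc4ΔCx3cr1 mice 1, 3 and 4 (log2 difference -0.02 ± 0.35, adjusted p = 0.998). None of the 4 members tested with edgeR passed, and 0.0% of the 501 genes tested were called there (29 had an unadjusted p under 0.05, and DESeq2 called 0). In monocyte-like cells (38 control, 163 Arpc4ΔCx3cr1) only *Cd74* was high enough to be tested, at 506 to 2275 CPM in control and 1039 to 2678 CPM in Arpc4ΔCx3cr1 mice (log2 difference 0.36 ± 0.37, adjusted p = 0.874, with 0.149% of 671 genes called). These small classes allow no statement that the levels are equal.

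Whether the genotype difference of microglia-like cells was larger than that of CAM-like or dendritic cell-like cells was tested within mice, for 7 members and both classes, on log2(CPM + 10). For *Cd74* the level in microglia-like cells minus that in CAM-like cells moved by 2.98, for *H2-Ab1* by 2.19 and for *H2-DMa* by 1.20 from control to Arpc4ΔCx3cr1 mice (exact permutation p = 0.0286 for each, 4 against 4 mice). None of the 14 comparisons passed after adjustment. Against dendritic cell-like cells, with 4 and 3 mice, the move was 2.59 for *Cd74* (exact permutation p = 0.0571, the smallest possible).

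Across cell classes, dendritic cell-like cells held the highest mean of every member, scaled by total UMIs over mice with at least 5 cells. In control mice *Cd74* averaged 27679 CPM in dendritic cell-like, 12302 CPM in CAM-like, 12288 CPM in *Ms4a7*-high, 6568 CPM in B cell-like, 827 CPM in T cell-like, 780 CPM in monocyte-like and 119 CPM in microglia-like cells. In Arpc4ΔCx3cr1 mice it averaged 21173 CPM in dendritic cell-like, 8472 CPM in CAM-like, 5573 CPM in B cell-like, 2326 CPM in *Ms4a7*-high, 960 CPM in monocyte-like, 547 CPM in microglia-like and 277 CPM in T cell-like cells. The place of the *Ms4a7*-high cluster thus differed with the genotype, and its control mean rests on 38 cells of 3 mice. *H2-DMa* and *H2-DMb1* spanned far less, with *H2-DMa* at 817 CPM in dendritic cell-like, 375 CPM in CAM-like, 247 CPM in microglia-like and 165 CPM in B cell-like cells.

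Neighbours in these orders were compared within mice with exact sign-flip permutation tests on log2(CPM + 10). Dendritic cell-like cells lay above CAM-like cells in 7 of 7 mice for all 6 members but *Ciita*, for which B cell-like cells are the neighbour (exact permutation p = 0.0156 for each of the 6, the lowest value possible with 7 mice). CAM-like cells lay above the *Ms4a7*-high cluster for *Cd74* in 6 of 7 mice (exact p = 0.0781), and the *Ms4a7*-high cluster was not put in order with B cell-like cells, above which its mean lay in control mice and below which it lay in Arpc4ΔCx3cr1 mice (exact p = 0.406 over the mice of both). None of the 42 pairs of neighbours passed after adjustment. For *Cd74* and the chains, T cell-like, monocyte-like and microglia-like cells could not be put in order, and for *Cd74* the means of all 3 lay below the level of empty droplets in both genotypes.

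**Figure D5:**
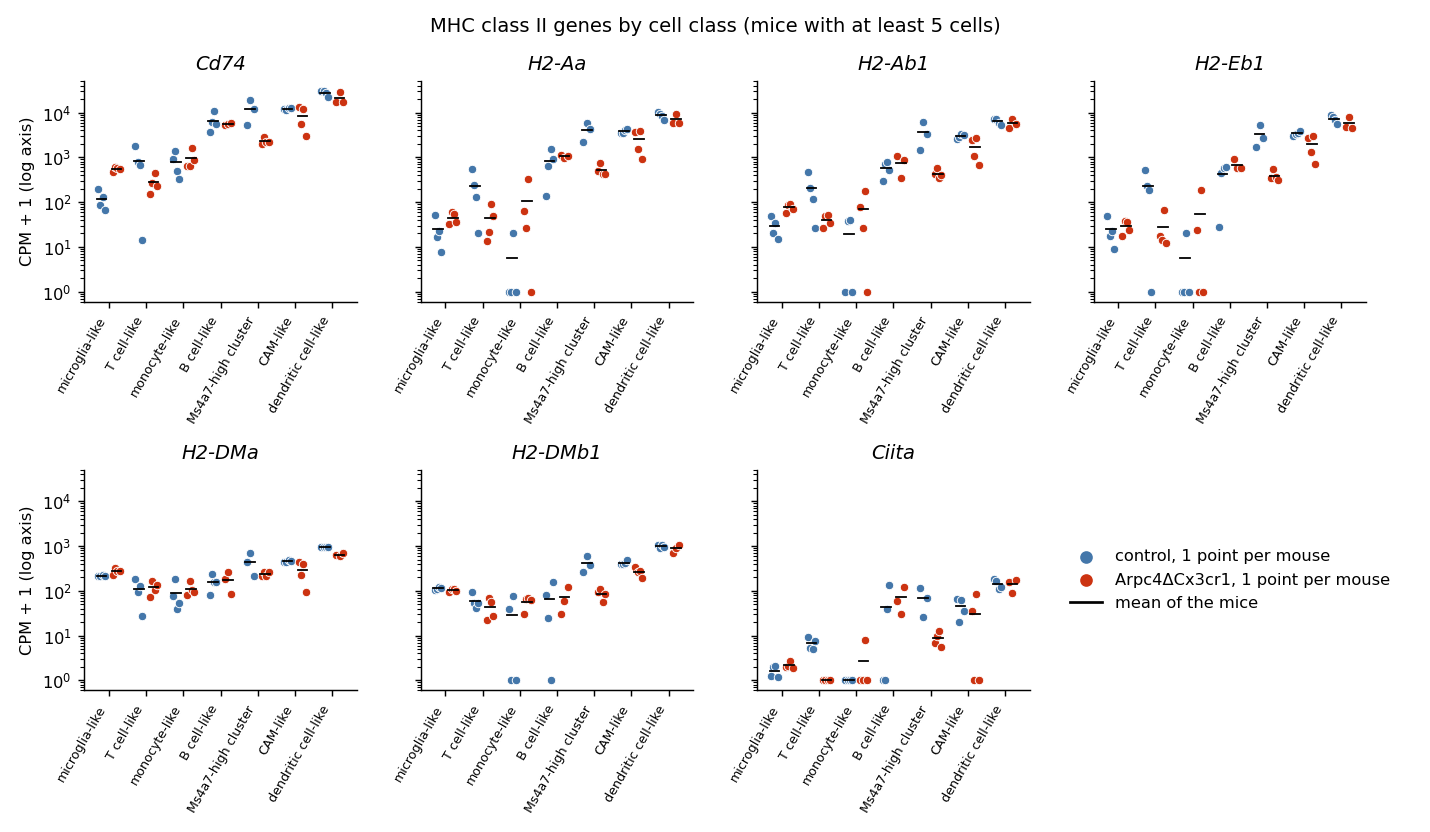
CPM + 1 (scaled by total UMIs, log axes) of each gene in 7 cell classes, with 1 point per mouse with at least 5 cells and bars at the means for control (blue) and Arpc4ΔCx3cr1 (red) mice. Dendritic cell-like cells have the highest mean for every gene, and *H2-DMa* and *H2-DMb1* differ less between classes than *Cd74* and the 3 chains.

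*Ciita* was low everywhere except in the classes with the most class II transcript. It was at 143 CPM on average in dendritic cell-like cells, at 54.7 CPM in B cell-like and 37.1 CPM in CAM-like cells, and at 0.920 CPM in microglia-like cells. In *Ms4a7*-high cells it was at 69.9 CPM in the 3 control mice and at 7.81 CPM in the 4 Arpc4ΔCx3cr1 mice. After thinning to 2000 UMIs it was caught in 12.5 to 30.8% of the dendritic cell-like cells of a control mouse, and in 1.51% of the *Ms4a7*-high cells of Arpc4ΔCx3cr1 mice (exact 95% interval 0.882 to 2.41). In T cell-like cells of Arpc4ΔCx3cr1 mice it was caught in 0 of 167 cells, which allows a share of cells with a UMI of up to 1.80% (3 counts of the total).

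The genes whose pattern over the 14 means of 7 classes and 2 genotypes was most like that of *Cd74* were 4 of the 6 other members, the 3 surface chains and *Ciita*. The Pearson correlation of log2(CPM + 10) was 0.954 for *H2-Ab1*, 0.943 for *H2-Aa*, 0.934 for *H2-Eb1*, 0.932 for *Ciita*, 0.756 for *H2-DMb1* and 0.716 for *H2-DMa*. *H2-DMb1* and *H2-DMa* lay below genes that are not members. Among the 6310 genes considered, the 5 most alike that are not members were *Hepacam2* (0.849), *Mrpl28* (0.792), *Spg21* (0.755), *Sp140* (0.744) and *Dck* (0.743). The 14 means share their mice and their pool, some rest on few cells, and the correlations are given as a description.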

How the data were processed

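Sorted CD45+ brain cells of 8 mice were pooled in 1 3′ single-cell library. The deposited values are UMI counts per gene and cell, made by the authors with Cell Ranger (7.1.0 per the file headers, 6.1.2 in the submitters' processing notes, mm10) and divided by tag into 1 matrix per mouse. Here, a cell was kept if it had 200 or more genes and no more than 20% of its UMIs on mitochondrial genes. Seurat 5.3.0 clustered them on 9970 variable genes, none a member or a listed class II gene (20 components, resolution 0.8). The doublet caller marked 0.347% of cells and had thus not worked.

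Counts were summed per mouse and class (at least 5 cells) and tested with edgeR 4.0.16 (quasi-likelihood, TMM, Benjamini-Hochberg adjusted p at 0.05), which was tested on simulated data (99% of 200 changed genes recovered). The simulation gave all genes the same set spread and changed only genes with enough UMIs, so this rate does not carry over to the members. Shares were thinned to 2000 UMIs and compared with exact permutation tests. *Ms4a7*-positive and *Ms4a7*-negative sums are paired by mouse, since each pair comes from 1 animal. Named are all 7 members, the other listed class II chains, the 5 largest rises and falls past the threshold among other listed genes, and the 5 genes most like *Cd74* among those of at least 50 CPM in 1 class. A listed gene that met this rule is not reported here. Cathepsins and other listed genes beyond these were named after their values were seen. Members, lists and markers were chosen with earlier results of these data known.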

Additional observations from a re-analysis of the deposited data

Results flagged for a closer look

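Of 65 groups of 4 mice in which a member's level was examined, 3 held a mouse whose gap to the nearest other mouse exceeded Dixon's 95% critical value for a group of 4, and chance gives about 1 in 20. All 3 concern *H2-Eb1* in Arpc4ΔCx3cr1 mice. In the *Ms4a7*-high cluster, Arpc4ΔCx3cr1 2 was at 546 CPM and the others at 319 to 358 CPM. In T cell-like cells, Arpc4ΔCx3cr1 3 was at 67.1 CPM and the others at 11.1 to 16.8 CPM. In monocyte-like cells, Arpc4ΔCx3cr1 3 was at 190 CPM and the others at 0 to 23.2 CPM.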

How the results depend on the processing

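Between genotypes in microglia-like cells, *Cd74*, *H2-Ab1* and *H2-DMa* passed under all 21 alternatives run, with log2 differences of 2.11 to 3.03, 1.32 to 2.06 and 0.39 to 0.55 apart from those that took off 5% or 10% of the empty-droplet profile. These took the control sums of *Cd74* to or near 0 in some mice, and their folds are not estimates. *H2-Aa* passed under 7 of 21 (0.75 to 2.34) and *H2-Eb1* under 2 of 20 (0.12 to 1.40), since it could not be tested after 10% of the empty-droplet profile was taken off. The count of members past the threshold rose from 3 to 5 when the *Ms4a7*-high cluster was included or when cells with a UMI of *Ms4a7* or of a B cell, dendritic cell or CAM marker were left out, both chosen after seeing the data. It was 3 to 4 without each mouse in turn.

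For *Ms4a7*-positive cells the count was 0 and rose to 5 with the mouse as a replicate block, to 4 with DESeq2 and to 4 without a filter on low counts. It was 0 to 4 without each mouse in turn, with 4 reached without Arpc4ΔCx3cr1 1. With the *Ms4a7*-high cluster in place of the UMI call it was 5, also with the block, without cells with a CAM marker UMI and without each mouse in turn, which were chosen after seeing the data. All genes called there were 25 without and 709 with the block, 101 with DESeq2, 75 without a filter and 1637 for the cluster. In monocyte-like cells 1 member passed without a filter and 0 with it. The number of members whose share passed fell from 5 to 0 without each mouse in turn, as the smallest p that 3 against 4 mice can give is 0.0571. The share of cells with *H2-DMb1* reversed without thinning (2.19 percentage points higher in Arpc4ΔCx3cr1 mice). The cause of these changes was not tested.

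In CAM-like cells 37 genes were called, 117 without a filter and 12 to 67 without each mouse in turn. In dendritic cell-like cells 6 were called, 142 without a filter, 14 with DESeq2 and 1 to 6 without a mouse. In monocyte-like cells 1 was called and 37 without a filter, and in B cell-like cells 0 and 24. The same replicate number in both genotypes pairs nothing: the deviations of same-numbered mice correlated at -0.0698, -0.00880, -0.0440 and -0.0239. A fit with that number as a replicate block called 5317 genes beside 5721 in microglia-like cells and 4 members beside 3, adding *H2-Aa*. Dendritic cell-like and B cell-like cells could not be fitted without Arpc4ΔCx3cr1 1, 3 or 4 or with at least 10 cells per mouse, nor monocyte-like cells with the latter. The depth of the small classes limits what could be detected in them.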
